A study of Homo sapiens with 12 samples.

Results

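The 10 genes described here encode the cytosolic translation elongation factors and their closest partners, EEF1A1, EEF1A2, EEF1B2, EEF1D, EEF1G, EEF1E1, EEF2, EEF2K, EIF5A and EIF5A2. They were chosen by gene symbol from the 15798 genes of a ribosome profiling (Ribo-seq) table, and all 10 were present and had enough reads to be tested among 10663 genes. The cells were HCT116, a human colorectal cancer line, and no primary tissue was included. One set of dishes received 100 nM trametinib, an inhibitor of the kinases MEK1 and MEK2, and the other received the solvent DMSO, both for 24 h. Before lysis all dishes, controls included, were exposed to cycloheximide, which stalls ribosomes on the mRNA, at 100 μg/ml for 5 min. From each treatment 3 libraries of randomly fragmented input RNA and 3 libraries of ribosome protected fragments (footprints) were sequenced, 12 libraries in 4 groups, with fragments of 25 to 35 nt. The question was which mRNAs lost or gained ribosomes relative to their abundance when MEK was inhibited.

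In elongation, eEF1A bound to GTP brings each aminoacyl-tRNA to the ribosome, and the eEF1B complex, built from the products of EEF1B2, EEF1D and EEF1G, exchanges the GDP left on eEF1A for GTP. The GTPase eEF2 then moves the ribosome along by a codon, and its kinase, encoded by EEF2K, phosphorylates and inhibits it. eIF5A, the only protein known to carry the amino acid hypusine, helps stalled ribosomes to form peptide bonds. The mRNAs of EEF1A1, EEF1B2, EEF1D, EEF1G and EEF2 belong to the 5'TOP class, which begins with a C followed by a run of pyrimidines and whose translation depends on mTOR and LARP1. EEF1A2, EEF1E1, EEF2K, EIF5A and EIF5A2 are not counted in that class here, and the 5'TOP marks in the authors' table divide the 10 genes in the same way.

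The starts of 5 of these mRNAs are shown for the pyrimidine tract that defines the class, which not all of them carry. Each line gives 10 bases before the RefSeq start and 20 bases from it (GRCh38.p14), with capitals marking the longest run of a C followed by at least 4 C or T bases, counted from its first C, that begins within 10 bases of the start.
EEF1A1 (chr6:73521013-73521042, minus strand): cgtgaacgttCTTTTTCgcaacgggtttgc
EEF2 (chr19:3985444-3985473, minus strand): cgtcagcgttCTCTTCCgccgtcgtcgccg
EEF1B2 (chr2:206159885-206159914, plus strand): ctcttcgggtCCTTTTTCCTCTCTTCagcg
EEF1G (chr11:62573872-62573901, minus strand): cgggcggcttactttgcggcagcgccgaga
EEF2K (chr16:22206268-22206297, plus strand): gcccgCTTCTgctcaacctagaccagcccc

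In EEF1A1, EEF2 and EEF1B2 the tract began at the annotated first base and was 7, 7 and 16 bases long. EEF1B2 has 2 RefSeq starts, of which the other had no such tract. EEF1G, the member with the largest fall in ribosome density, had no such tract in this window. EEF2K, whose ribosome density did not pass the test, had a tract of 5 bases that began 5 bases before the start. A tract anywhere within 10 bases was found for 5 of the 8 members whose start was searched, against 40.1% of 12397 genes of the table with a RefSeq start and 84.6% of 78 other genes marked 5'TOP. The 5 pool both classes, EEF1A1, EEF1B2 and EEF2 with EEF2K and EIF5A2. In EIF5A2 too the tract was 5 bases long and began 5 bases before the start. A tract from the first base was found for 3 of the 8, against 1.74% and 16.7%. Runs that cross the start with their first C before it were not counted as from the first base, so these shares can be too low. The search used only the mRNA strand, and annotated starts can lie some bases away from those used in HCT116 cells.

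An input library held 2276693 to 2845568 counts and a footprint library 10127477 to 19181588. The labels did not say whether equally labelled libraries came from separate cultures, and the p-values measure the spread between these libraries. Input and footprint libraries of 1 treatment and number are called a dish. The dish of DMSO replicate 1 stood apart, its input and footprints deviating together from their group means (Pearson's r 0.816 across 7669 genes, which are not independent replicates), and ribosome density is also given without it. The ERK target genes DUSP6, SPRY4 and ETV5 had input changes of -7.64, -6.94 and -6.39 on the log2 scale (trametinib over DMSO, edgeR adjusted p 3.08e-08, 1.64e-07 and 1.87e-06). All 7 epithelial markers were tested and none was at 0 in any group. Their summed level was 5158 to 7388 CPM in DMSO and 8417 to 10630 in trametinib input, and 7585 to 10360 and 13250 to 15440 in footprints, and its part in the results was not tested. Of 10 markers of other cell types 8 were listed and 2 were tested, with summed levels of 9.62 to 16.9 CPM in DMSO input and 21.0 to 28.5 in trametinib input. Among them COL3A1, a fibrillar collagen gene, had 0 to 3 counts in each DMSO library and 25 to 328 in each trametinib library. COL1A1, the other one tested, had counts in both treatments, 14 to 36 in each input library and 78 to 148 in each footprint library. GFAP had at most 23 counts in any library, and PTPRC, CD3E and DCN at most 1. The part of these markers in the results below was not tested.

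Ribosome density, the footprints of an mRNA relative to its input, fell in trametinib for all 5 members of the 5'TOP class and passed the test for none of the other 5. It was tested as the interaction of assay and treatment over all 12 libraries (edgeR quasi-likelihood test, Benjamini-Hochberg adjusted p under 0.05). The background was 1.05% of all tested genes, 1.00% with lower density (107 genes) and 0.0469% with higher density (5 genes). The count of 107 became 70, 70 and 68 without trametinib input replicate 1, footprint replicate 1 and footprint replicate 2, and 80 without DMSO dish 3. The 5'TOP members changed by -2.06 to -1.04 on the log2 scale with a median of -1.28, and the other members by -0.49 to -0.04 with a median of -0.27. The median of all tested genes was 0.00. Without the dish of DMSO replicate 1, density changed by -1.18 for EEF1A1, -1.18 for EEF1B2, -1.35 for EEF1D, -1.87 for EEF1G and -1.36 for EEF2, and each passed (edgeR adjusted p 8.55e-05 to 7.41e-04). Without trametinib dish 1, 2 or 3, the genes with lower density numbered 31, 17 and 46, and of the 5'TOP members EEF1G and EEF2 passed each time, EEF1B2 only without dish 3, and EEF1A1 and EEF1D not at all. Scaling by library totals in place of size factors put the median of all genes at 0.18 in density and 0.16 in footprints, gave 27 genes higher and 78 lower in density, and gave medians of -1.10 for the 5'TOP members and -0.10 for the others. The median of the other members was -0.43 without DMSO dish 1, -0.13 without DMSO dish 3 and -0.17 without DMSO footprint replicate 3. Scaling hides any change common to all mRNAs, and in bulk RNA fewer cells with a transcript and less transcript per cell cannot be told apart.

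**Figure D1:**
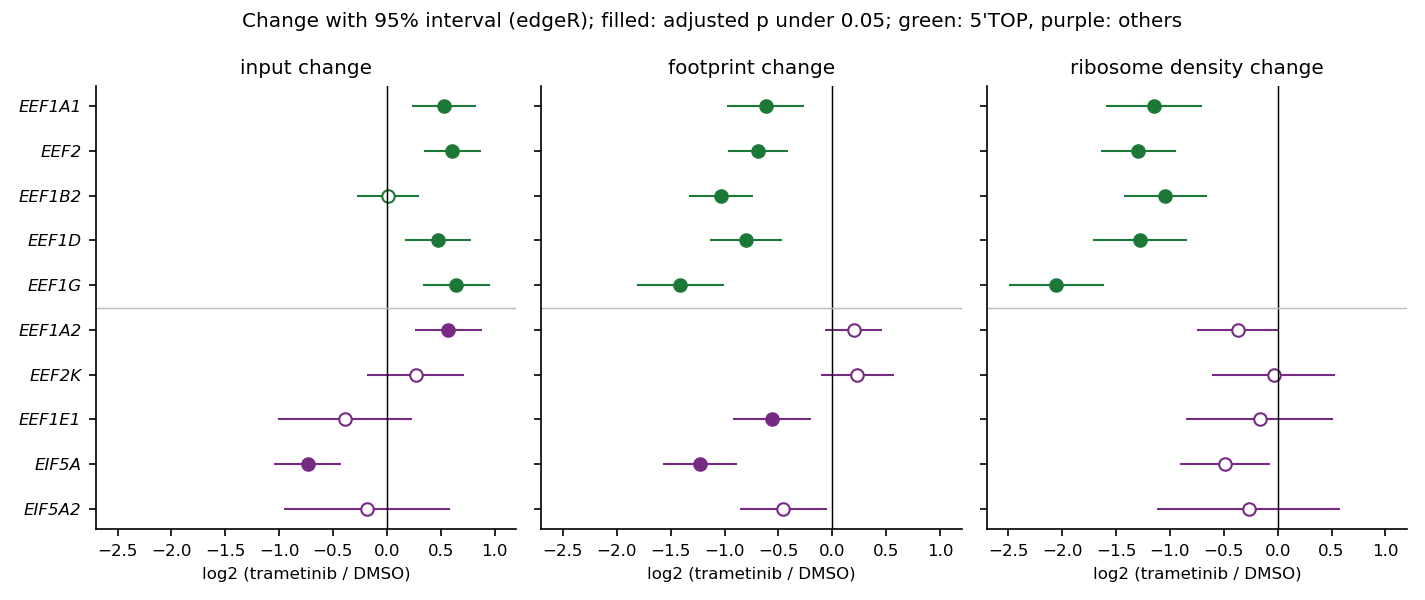
Log2 change (trametinib over DMSO) of each elongation factor gene in input, footprints and ribosome density, with 95% intervals from edgeR; filled points have an adjusted p-value under 0.05, green marks 5'TOP members and purple the other members. The 5 green points in ribosome density lie between -2.06 and -1.04, and the 5 purple points between -0.49 and -0.04.

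In input, 5 members were higher in trametinib, EEF1A1, EEF1A2, EEF1D, EEF1G and EEF2, and 1 was lower, EIF5A. Among all tested genes 32.1% changed, 15.2% higher and 16.9% lower. In footprints, 7 members were lower, the 5 of the 5'TOP class with EIF5A and EEF1E1, and none was higher at an adjusted p-value under 0.05. The footprint background was 49.4%, 25.6% lower (2731 genes) and 23.8% higher (2537 genes), and under scaling by library totals 1951 genes were lower and 3570 higher. The 5'TOP members thus combined a median input change of 0.53 with a median footprint change of -0.80, against -0.01 and -0.01 over all tested genes. For the other members these medians were -0.18 and -0.46. Without overlap between the libraries of the 2 treatments, 5 members were higher and 1 lower in input, against 23.2% and 23.3% of all tested genes. In footprints 7 were lower and 1, EEF1A2, was higher without overlap, against 30.3% and 29.3%.

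**Figure D2:**
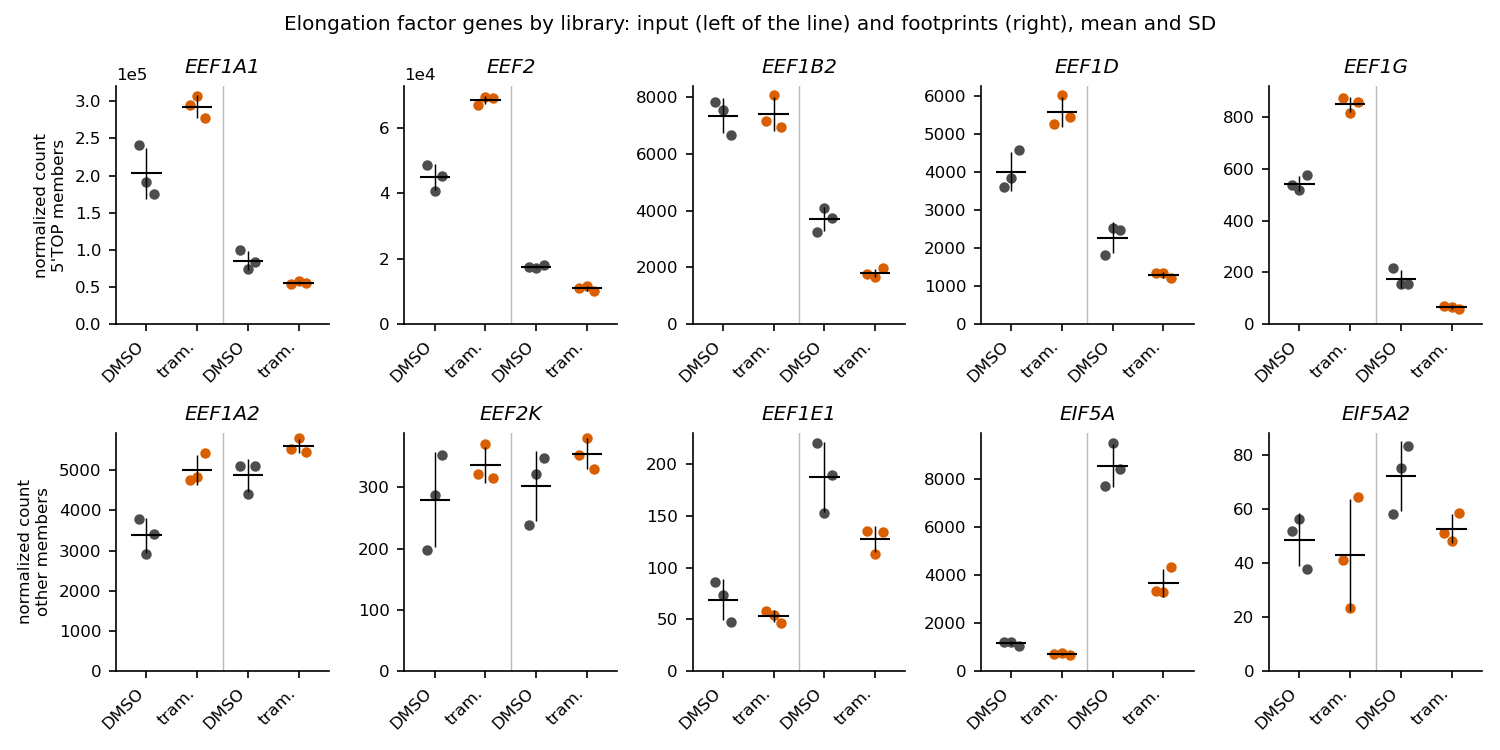
Normalized counts of each elongation factor gene in the 12 libraries, DMSO in grey and trametinib in orange, with the mean and SD of 3 libraries. The upper row holds the 5'TOP members, of which all but EEF1B2 have higher input and all have lower footprint counts in every trametinib library.

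EEF1A1 (chromosome 6, 73489308 to 73525587, minus strand, GRCh38), the main eEF1A gene, had the highest counts of the group. Its normalized input counts were 241695, 191572 and 175188 in the DMSO libraries and 294393, 306757 and 276902 in the trametinib libraries. Its footprint counts were 99251, 74251 and 83079 in DMSO and 53924, 57705 and 55576 in trametinib. Input was higher and footprints lower in each trametinib library, with no overlap between treatments. Input rose by 0.53 (SE 0.14, edgeR adjusted p = 0.0102) and footprints fell by 0.62 (SE 0.16, adjusted p = 0.0106) on the log2 scale. Ribosome density fell by 1.15 (SE 0.21, 95% interval -1.59 to -0.70, edgeR adjusted p = 0.0118), to 45.2% of its DMSO value. Its adjusted p was the largest of the 5'TOP members in this test, and limma gave an adjusted p of 0.0538. Without trametinib footprint replicate 1 it was 0.0537 for density (change -1.12) and 0.0582 for footprints, and without DMSO input replicate 3 the input change was 0.43 (edgeR adjusted p = 0.0652). Without trametinib dish 1, 2 or 3 the density p was 0.170, 0.151 and 0.101 (edgeR, adjusted). Of the 30-base stretches of its reading frame, 98.5% also occur in annotated transcripts of other symbols, most in the processed pseudogene EEF1A1P5.

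EEF1A2 (chromosome 20, 63488013 to 63499239, minus strand), the eEF1A paralog known from muscle and neurons, shared 78.1% of bases with EEF1A1 over the 1386 aligned bases of the reading frames, and none of its 30-base stretches occurs in another transcript. Normalized input counts of EEF1A2 were 3786, 2921 and 3421 in DMSO and 4768, 4835 and 5437 in trametinib, and its footprint counts were 5100, 4405 and 5121 in DMSO and 5529, 5802 and 5470 in trametinib. Every trametinib library lay above every DMSO library in both assays. Input rose by 0.57 (SE 0.14, edgeR adjusted p = 0.00893), a call lost without trametinib input replicate 3 (0.51, adjusted p = 0.0543). The footprint change was 0.20 (SE 0.12, edgeR adjusted p = 0.184), and under scaling by library totals 0.38 (adjusted p = 0.0211). The density change was -0.37 (SE 0.18, 95% interval -0.75 to 0.01, edgeR adjusted p = 0.625).

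The paralogs were also compared within each library, where scaling cancels. EEF1A2 made up 4.89%, 5.60% and 5.81% of all EEF1A1 and EEF1A2 footprint counts in DMSO and 9.30%, 9.14% and 8.96% in trametinib. The Wilson 95% intervals, which cover counting error only, were 4.81% to 4.97% for the lowest of these and 9.17% to 9.43% for the highest. In input the share was 1.54%, 1.50% and 1.92% in DMSO and 1.59%, 1.55% and 1.93% in trametinib, and the treatments overlapped. Within a dish, the log2 footprint to input ratio of EEF1A2 exceeded that of EEF1A1 by 1.66 to 1.96 in DMSO and by 2.33 to 2.67 in trametinib. This gap was wider by 0.78 in trametinib, with no overlap (two-sided exact permutation test, p = 0.1, the smallest that 3 against 3 can give). These measures within pairs were chosen after values had been seen.

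**Figure D3:**
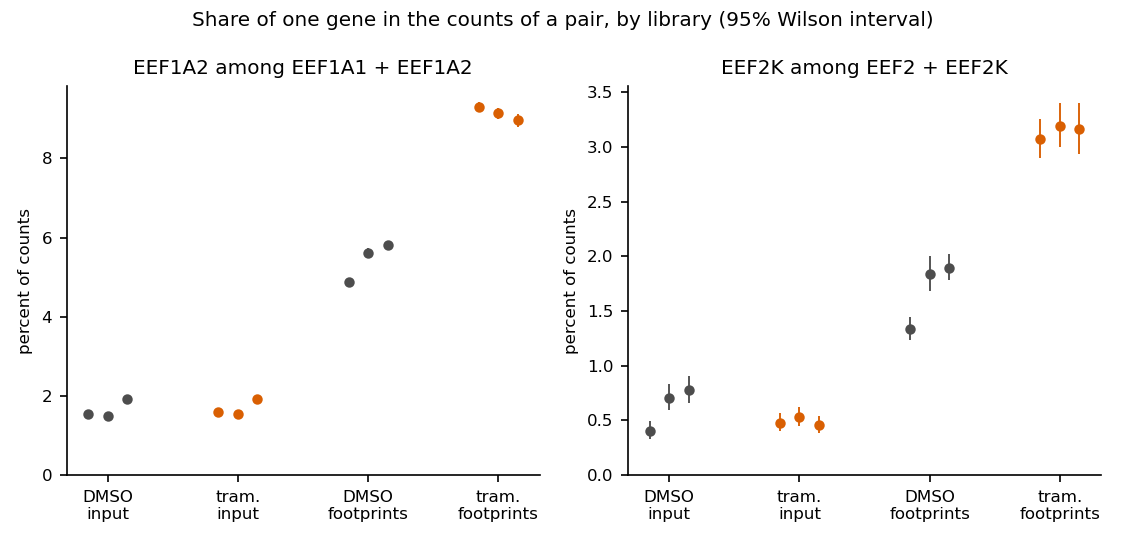
Percent of counts that EEF1A2 contributes to EEF1A1 and EEF1A2 together (left) and EEF2K to EEF2 and EEF2K together (right), by library, DMSO in grey and trametinib in orange, with 95% Wilson intervals. In footprints the trametinib libraries lie above all DMSO libraries, at 8.96% to 9.30% and at 3.07% to 3.19%, and in input the treatments overlap.

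EEF1B2 (chromosome 2, 206159585 to 206162928, plus strand), which encodes the nucleotide exchange subunit eEF1B alpha, was the only 5'TOP member without higher input. In input its normalized counts were 7815, 7564 and 6652 in DMSO and 7157, 8073 and 6947 in trametinib, so the treatments overlapped. Its footprint counts were 3256, 4103 and 3748 in DMSO and 1768, 1682 and 1979 in trametinib, without overlap. The input change was 0.01 (SE 0.13, 95% interval -0.28 to 0.30, edgeR adjusted p = 0.967). Footprints fell by 1.03 (SE 0.13, edgeR adjusted p = 2.61e-04) and density by 1.04 (SE 0.18, adjusted p = 0.00792), which left 48.6% of the DMSO density. The density call was lost without trametinib dish 1 or 2 (edgeR adjusted p 0.107 and 0.168). Of the 30-base stretches of the EEF1B2 frame, 86.4% also occur in annotated transcripts of other symbols, most in those of EEF1B2P3.

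EEF1D, on chromosome 8, encodes the other exchange subunit, eEF1B delta. Input counts, normalized as above, were 3607, 3839 and 4589 in DMSO and 5251, 6022 and 5450 in trametinib. Its footprint counts were 1814, 2542 and 2476 in DMSO and 1338, 1360 and 1217 in trametinib. Neither assay showed an overlap between treatments. Footprints fell by 0.80 (SE 0.15, edgeR adjusted p = 0.00201) and density by 1.28 (SE 0.20, adjusted p = 0.00455), to 41.3% of DMSO. The density call was lost without trametinib dish 1, 2 or 3 (edgeR adjusted p 0.0618, 0.0840 and 0.0694). Input rose by 0.47 (SE 0.14, edgeR adjusted p = 0.0220), and that call was lost without DMSO input replicate 2 (adjusted p = 0.0627) or without trametinib input replicate 1, 2 or 3 (adjusted p = 0.0547, 0.112 and 0.0652).

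EEF1G (chromosome 11, 62559596 to 62574086, minus strand) encodes eEF1B gamma, the subunit that holds the complex together. Its normalized input counts were 537, 516 and 574 in DMSO and 871, 816 and 859 in trametinib, while its footprint counts were 215, 154 and 154 in DMSO and 71.6, 67.8 and 57.6 in trametinib. No other member moved as far in opposite directions. Input rose by 0.65 (SE 0.14, edgeR adjusted p = 0.00425) and footprints fell by 1.41 (SE 0.18, adjusted p = 2.60e-04). Density fell by 2.06 (SE 0.21, 95% interval -2.50 to -1.61, edgeR adjusted p = 9.27e-04) to 24.1% of its DMSO value, rank 15 from the lowest of 10663 genes. Without the dish of DMSO replicate 1, where EEF1G footprints were highest, density fell by 1.87 (adjusted p = 8.55e-05). Of the 30-base stretches of its reading frame, 99.2% also lie in transcripts of an overlapping locus without a symbol in Gencode v44, and how the counting treated that locus is not given in the sources used here. The changes, ranks and shares of EEF1G rest on the reads that were kept, 239 to 362 in an input and 121 to 585 in a footprint library.

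Within the eEF1B subunits the shares of input counts, not corrected for frame length, differed between treatments. These shares too were chosen after values had been seen. EEF1B2 held 65.3%, 63.5% and 56.3% of EEF1B2, EEF1D and EEF1G input counts in DMSO and 53.9%, 54.1% and 52.4% in trametinib. EEF1D rose in that share from 30.2% to 38.8% across the DMSO libraries to 39.5% to 41.1% in trametinib. Neither share overlapped in input (two-sided exact permutation test, p = 0.1, the smallest possible). In footprints both shares overlapped between treatments, at 58.8% to 61.6% and 54.1% to 60.8% for EEF1B2. The EEF1G share was higher in trametinib input, at 5.47% to 6.56% against 4.33% to 4.86%, and lower in trametinib footprints, at 1.77% to 2.25% against 2.26% to 4.08%, without overlap (two-sided exact permutation tests, p = 0.1 each). Without DMSO footprint replicate 1 its footprint difference was -0.27 percentage points, against -0.85 with it.

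EEF1E1 (chromosome 6, 8073360 to 8102559, minus strand) encodes a scaffold of the multi-tRNA synthetase complex, also called AIMP3, and is named after the eEF1 complex for its sequence. Normalized input counts of EEF1E1 were 86.3, 73.5 and 46.8 in DMSO and 57.8, 54.0 and 46.3 in trametinib, from 18 to 40 reads. Its footprint counts were 221, 152 and 189 in DMSO and 135, 113 and 134 in trametinib. Input overlapped between treatments and footprints did not. Footprints fell by 0.56 (SE 0.16, edgeR adjusted p = 0.0183), a call lost under scaling by library totals (-0.38, adjusted p = 0.0686) and without trametinib footprint replicate 2 (-0.47, adjusted p = 0.0864). The input change was -0.39 (SE 0.29, edgeR adjusted p = 0.330) and the density change -0.17 (SE 0.32, 95% interval -0.85 to 0.51, adjusted p = 0.984). The interval excludes neither a moderate fall nor a moderate rise at this depth. Only 28% of its 30-base stretches are free of the read-through frame EEF1E1-BLOC1S5.

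EEF2 (chromosome 19, 3976056 to 3985463, minus strand), the gene of the translocase, moved up in input and down in footprints. Its normalized input counts were 48751, 40763 and 45305 in DMSO and 67071, 69336 and 69139 in trametinib, and its footprint counts were 17627, 17211 and 18034 in DMSO and 11160, 11544 and 10126 in trametinib. Neither assay showed an overlap. Input rose by 0.61 (SE 0.12, edgeR adjusted p = 0.00231), footprints fell by 0.69 (SE 0.12, adjusted p = 0.00172) and density fell by 1.30 (SE 0.16, 95% interval -1.64 to -0.95, adjusted p = 0.00120). Density was 40.7% of its DMSO value, and no 30-base stretch of the EEF2 frame occurs in another annotated transcript.

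EEF2K (chromosome 16, 22206278 to 22288738, plus strand) encodes the kinase that inhibits eEF2 and is itself phosphorylated downstream of ERK and mTOR signaling. Input held 198, 287 and 354 normalized counts in DMSO and 322, 371 and 316 in trametinib, and its footprint counts were 239, 322 and 348 in DMSO and 354, 381 and 331 in trametinib. Both assays overlapped, and DMSO replicate 1 was lowest in each. The changes were 0.27 (SE 0.21, edgeR adjusted p = 0.355) in input, 0.23 (SE 0.15, adjusted p = 0.228) in footprints and -0.04 (SE 0.27, 95% interval -0.61 to 0.53, adjusted p = 0.996) in density. The density change took the opposite sign under TMM scaling (0.03) and library totals (0.14). Relative to its substrate, EEF2K made up 1.34%, 1.84% and 1.90% of EEF2 and EEF2K footprint counts in DMSO and 3.07%, 3.19% and 3.16% in trametinib. In input it made up 0.405%, 0.700% and 0.774% in DMSO and 0.479%, 0.532% and 0.455% in trametinib. Within a dish, the log2 footprint to input ratio of EEF2K exceeded that of EEF2 by 1.31 to 1.73 in DMSO and by 2.63 to 2.84 in trametinib, a gap wider by 1.24 (two-sided exact permutation test, p = 0.1, the smallest possible).

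EIF5A (chromosome 17, 7306999 to 7312463, plus strand) was the only member with lower input. Its normalized input counts were 1221, 1214 and 1040 in DMSO and 696, 723 and 668 in trametinib, and its footprint counts were 7735, 9516 and 8450 in DMSO and 3344, 3294 and 4331 in trametinib. Both assays were lower in trametinib without overlap. Input fell by 0.74 (SE 0.14, edgeR adjusted p = 0.00201) and footprints fell by 1.23 (SE 0.15, adjusted p = 2.40e-04). The density change of -0.49 (SE 0.19, 95% interval -0.91 to -0.08) had an unadjusted p of 0.0237 and did not pass over all genes (edgeR adjusted p = 0.487). Dish by dish the footprint to input ratio was 6.34, 7.84 and 8.13 in DMSO and 4.81, 4.56 and 6.48 in trametinib, with an overlap between the highest trametinib dish and the lowest DMSO dish. In Gencode v44, 22.9% of its 30-base stretches are free of the reading frame of EIF5AL1, a near-identical copy, and reads in the rest would not be counted under the authors' rule of a single symbol.

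EIF5A2 (chromosome 3, 170888418 to 170908644, minus strand), the paralog with 71.9% of bases shared over 459 aligned bases, had the lowest input. Normalized input counts of EIF5A2 were 51.8, 56.2 and 37.5 in DMSO and 40.9, 23.2 and 64.3 in trametinib, from 9 to 26 reads, and its footprint counts were 57.8, 74.9 and 83.3 in DMSO and 51.0, 48.1 and 58.5 in trametinib. Both assays overlapped. The changes were -0.18 (SE 0.36, edgeR adjusted p = 0.730) in input, -0.46 (SE 0.18, adjusted p = 0.0601) in footprints and -0.27 (SE 0.40, 95% interval -1.12 to 0.58, adjusted p = 0.974) in density. Without DMSO footprint replicate 1 the footprint change was -0.60 and passed (edgeR adjusted p = 0.00384). The difference in log2 ratio between EIF5A2 and EIF5A overlapped between treatments (two-sided exact permutation test, p = 0.7).

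**Figure D4:**
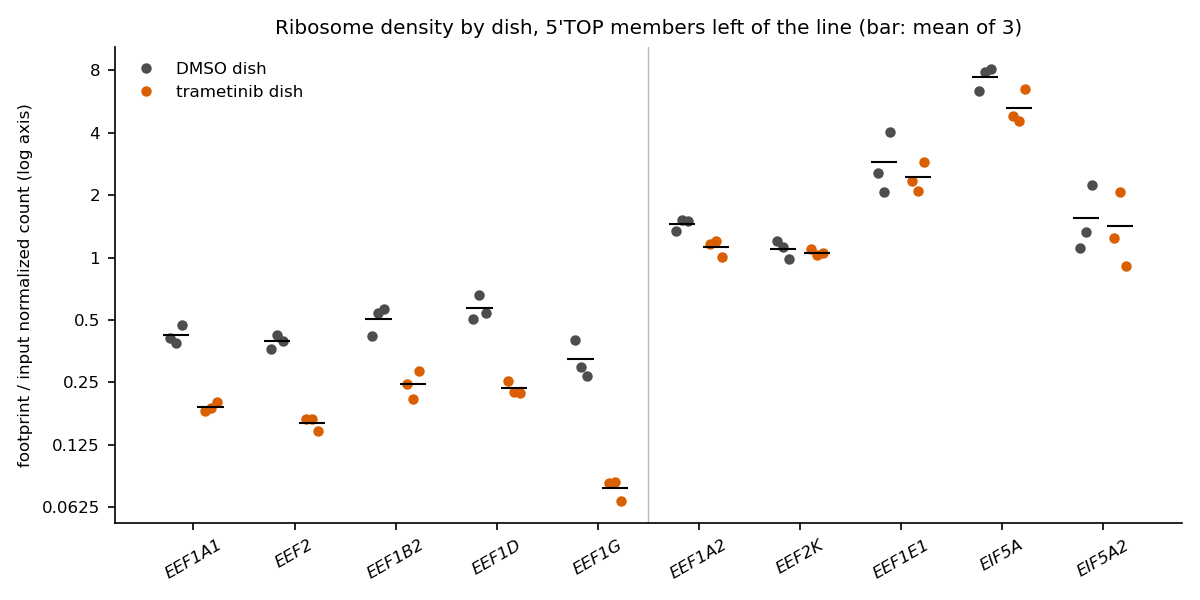
Ratio of normalized footprint to input counts of each elongation factor gene in the 3 DMSO (grey) and 3 trametinib (orange) dishes, on a log axis, with the mean as a bar. The 5'TOP members lie between 0.269 and 0.662 in DMSO and between 0.0670 and 0.285 in trametinib, while the ratios of the other members, apart from EEF1A2, overlap between treatments.

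Dish by dish, the ratio of EEF2 was 0.362, 0.422 and 0.398 in DMSO and 0.166, 0.166 and 0.146 in trametinib. The ratio of EEF1A1 was 0.411, 0.388 and 0.474 in DMSO and 0.183, 0.188 and 0.201 in trametinib. For EEF1G it was 0.401, 0.298 and 0.269 against 0.0822, 0.0831 and 0.0670. Without overlap, the ratio was lower in trametinib for 6 of the 10 members, the 5'TOP members and EEF1A2, against a background of 9.03% of all tested genes, and it was higher for none, against 7.92%. In DMSO each 5'TOP member also had a lower ratio than each of the other members, at most 0.662 against at least 0.985. Since the ratio depends on how each frame was counted in both assays, this order is given as a description.

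Per length of reading frame, EEF1A1 had the highest input level in DMSO, at 146334 ± 25000 normalized counts per kb (SD, n = 3), followed by EEF2 at 17459 ± 1557 and EEF1B2 at 10880 ± 907. These 3 did not overlap with each other or with the next. EIF5A (2507 ± 223), EEF1A2 (2430 ± 312) and EEF1D (2067 ± 265) overlapped as neighbours in the order, as did EEF1E1 (132 ± 38.6), EEF2K (129 ± 35.8) and EIF5A2 (106 ± 21.3) at its end. EEF1G lay between these sets at 414 ± 22.1 normalized counts per kb. In DMSO footprints per kb, EEF1A1 remained first at 61708 ± 9147 and EIF5A came second at 18543 ± 1941, ahead of EEF2 at 6847 ± 160. In trametinib footprints EEF2 (4251 ± 285) and EEF1A2 (4032 ± 128) overlapped, whereas in DMSO EEF2 lay above EEF1A2 (3510 ± 293) without overlap. The levels of EEF1A1, EEF1B2, EIF5A, EEF1E1 and EEF1G per kb are uncertain, because of the bases they share with other symbols. That of EEF1D depends on its long annotated frame of 1941 bases.

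Together the 10 members took up 5.01%, 4.26% and 4.07% of all input counts in DMSO and 6.39%, 6.78% and 6.15% in trametinib. Of all footprint counts they took up 2.01%, 1.71% and 1.81% in DMSO and 1.32%, 1.39% and 1.33% in trametinib. The share was thus higher in input and lower in footprints in each trametinib library, with differences of 1.99 and -0.496 percentage points between the means (two-sided exact permutation tests, p = 0.1 each, the smallest possible). EEF1A1 alone accounted for 3.41% ± 0.477 of input counts in DMSO and 4.94% ± 0.290 in trametinib (SD, n = 3). Without it, the other 9 genes moved from 1.04% ± 0.0523 to 1.49% ± 0.0465 of input and from 0.564% ± 0.0242 to 0.404% ± 0.00805 of footprints.

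**Figure D5:**
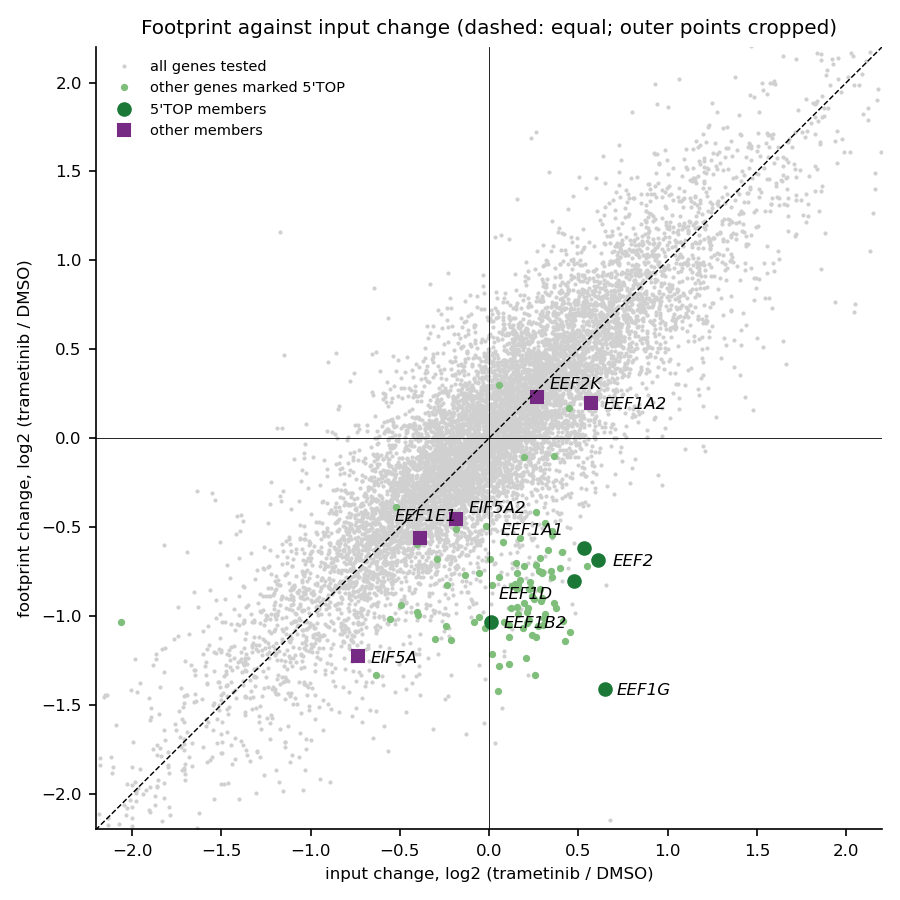
Log2 change in footprints against log2 change in input (trametinib over DMSO) for all tested genes (grey), other genes marked 5'TOP (light green), 5'TOP members (dark green) and other members (purple), with the line of equal change dashed and points beyond the axes cropped. The dark green points lie below the line, EEF1G farthest at 0.65 in input and -1.41 in footprints, and EIF5A lies at -0.74 and -1.23.

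The authors' table marks 101 other genes as 5'TOP, of which 93 were tested. Their median density change was -1.04. At the threshold 65 were lower and none higher (edgeR), against 1.00% and 0.0469% of all tested genes. The 65 became 20, 8 and 28 without trametinib dish 1, 2 or 3. Among these 98 tested genes marked 5'TOP, members included, EEF1G had the lowest density change, EEF2 ranked 17, EEF1D 19, EEF1A1 34 and EEF1B2 51. In input the other marked genes had a median change of 0.19, with 9 higher and 3 lower at the threshold. With all libraries kept, both are smaller shares than the 15.2% higher and 16.9% lower over all tested genes. Without DMSO input replicate 1 the 9 became 20 of 93, a larger share than the 1744 of 10663 tested genes that were higher there. The 9 became 3 without DMSO input replicate 2, and 1, 0 and 2 without trametinib input replicate 1, 2 or 3. The 3 with lower input became 1 without trametinib input replicate 2 and 5 without DMSO input replicate 3. EEF1G, EEF2, EEF1A1 and EEF1D held ranks 98, 97, 95 and 94 of 98 in input change counted from the lowest, and EEF1B2 rank 24. In footprints the other marked genes had a median change of -0.91, with 87 lower and none higher, against 25.6% and 23.8% of all tested genes. There EEF1A1 (rank 84), EEF2 (78) and EEF1D (62) lay nearer to the least changed end, while EEF1G held rank 2.

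The genes whose profile over the 12 libraries was most like the mean of the 5'TOP members, after each gene's mean within each assay was subtracted, were RPS9, RPL11, RPL27A, RPL3 and RPLP0, with Pearson's r from 0.962 to 0.982. All 5 encode ribosomal proteins and are marked 5'TOP. The genes most like EEF2K were HECTD3, ANAPC2, SLC35B2, GNB5 and P3H3, with r from 0.954 to 0.972, and none of them is marked 5'TOP. Both correlations were taken over 7659 genes in libraries that share scaling and treatment, so they are descriptions.

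Of 27 genes that modify, assist or parallel the elongation factors, 25 were tested, and none passed the test in ribosome density, against 1.05% of all tested genes. Their median density change was -0.05, with values from -0.75 to 0.51, against 0.00 over all tested genes. The smallest unadjusted p-value among them was 0.0289, for DPH5 (-0.71, edgeR adjusted p = 0.520). In input 8 were lower and none higher, against 16.9% and 15.2% of all tested genes. In footprints 17 were lower and none higher, against 25.6% and 23.8%. The 17 became 10 and 11 without trametinib footprint replicate 1 or 2, and 11 under scaling by library totals. With no filter on low counts, or a filter on libraries of either kind, 18 were lower and 1 higher. Library totals, and leaving out DMSO footprint replicate 3, also gave 1 higher. Their median changes were -0.54 and -0.56, against -0.01 and -0.01 over all tested genes.

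Hypusine on eIF5A is made by DHPS and DOHH. The input counts of DHPS were too low for it to be tested, while each footprint library held 28 to 77. DOHH footprints fell by 0.56 (SE 0.13, edgeR adjusted p = 0.00785) with an input change of -0.69 (adjusted p = 0.136). Of the 7 genes that make diphthamide, the modified histidine of eEF2, 1 was lower in input, DPH2 (-0.91, edgeR adjusted p = 0.00627), near the background of 16.9%, and 5 were lower in footprints, against 25.6%. DPH2 (-1.13, edgeR adjusted p = 6.23e-04) and DPH5 (-0.96, adjusted p = 0.00182) had the smallest footprint p-values. DPH1 (-0.41, edgeR adjusted p = 0.0401) and DPH3 (-0.58, adjusted p = 0.0499) were close to the threshold. DPH6 had an input change of -0.64 (adjusted p = 0.0703). Of 5 tested methyltransferase genes, EEF2KMT, whose product modifies eEF2, fell in input by 1.03 (edgeR adjusted p = 0.00307) and in footprints by 1.15 (adjusted p = 5.99e-04). EEF1AKMT4, whose product modifies eEF1A, fell in footprints by 0.86 (edgeR adjusted p = 0.00480), and 3 of the 5 were lower in footprints.

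All 5 genes listed here as mitochondrial elongation factors were lower in footprints, against 25.6% of all tested genes. GFM2 among them was close to the threshold (-0.36, edgeR adjusted p = 0.0478). GUF1 (-1.01, edgeR adjusted p = 0.00449) and GFM1 (-0.78, adjusted p = 0.00844) were lower in input, against 16.9%. The input call of GFM1 was lost without trametinib input replicate 2 (-0.70, edgeR adjusted p = 0.0535). In footprints GFM1, the mitochondrial counterpart of EEF2, fell by 0.83 (edgeR adjusted p = 2.30e-04) and GUF1 by 0.58 (adjusted p = 0.00480). Their density changes were -0.05 for GFM1 and 0.43 for GUF1, and neither passed (edgeR adjusted p 0.995 and 0.784). Of 4 other translational GTPase genes, GTPBP1 fell in input by 0.77 (edgeR adjusted p = 0.00419) and in footprints by 0.51 (adjusted p = 0.00933), while the values of GTPBP2 rested on 1 dish. GTPBP2 changed by -1.71 in input (edgeR adjusted p = 0.0255) and by -1.52 in footprints (adjusted p = 0.0608), and without the DMSO replicate 1 library of each assay by -0.53 (adjusted p = 0.112) and -0.21 (adjusted p = 0.273). Its input call was also lost without trametinib input replicate 2 or 3 (adjusted p 0.0885 and 0.0772). Of the partners of EEF1E1 and the eEF1 complex, AIMP2 and VARS1 fell in input by 0.69 and 0.63 (edgeR adjusted p 0.0129 and 0.00474) and in footprints by 0.67 and 0.73 (adjusted p 0.00141 and 0.00239). The input call of AIMP2 was lost without trametinib input replicate 1 (-0.60, edgeR adjusted p = 0.0679).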

How the data were processed

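The authors removed reads of rRNA and tRNA with Bowtie 1.2.2, mapped the rest to Gencode transcripts and counted reads within reading frames of a single gene symbol (tools named per the labels and the submitters' processing notes). The deposited table holds raw counts and, as a normalized signal, the same counts divided by size factors, for 12 libraries. Size factors recomputed here equalled those of the authors in 12 of 12. The authors' DESeq2 1.46.0 fold changes and adjusted p-values in the table were not used, and 0 columns of single libraries were left unused.

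Here, raw counts were tested with edgeR 4.0.16 (glmQLFit, two-sided, R 4.3.3), with median-of-ratios size factors and Benjamini-Hochberg adjustment over 10663 genes that reached 10 counts in 3 or more input libraries. DESeq2 1.42.0, limma 3.58.1 (prior count 2), other scalings, filters and replicate blocks were alternatives. On simulated counts of 10663 genes the density test recovered 32.0% of 2-fold and 95.0% of 4-fold changes, with 10 false calls. The changed genes were drawn only from those above a minimum mean level, so genes with low counts are not covered. A dish joins the input and footprint libraries of 1 treatment and number. The study's methods took input from the lysate of each condition, but that equal numbers share a lysate is inferred. Within dishes, deviations from the group means had correlations of 0.816, 0.181 and 0.343 (DMSO) and 0.141, 0.0803 and -0.122 (trametinib). Across treatments, equal numbers gave 0.068, 0.0484 and 0.334 (input) and 0.117, 0.133 and 0.294 (footprints).

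The members and lists were chosen with earlier results of these data known. Named were all members, pathway genes called in density or with the 2 smallest p-values of a list in input or footprints, the 5 genes most like the 5'TOP members and EEF2K (mean of at least 100 normalized counts, pseudocount 1), and 3 ERK targets. GFM2, DPH1 and DPH3 were named for footprint calls close to the threshold. Comparisons within pairs, runs without a whole dish and alternatives for counts over lists were added after values had been seen. Gene positions are from Gencode v44. Start windows are from RefSeq, with no entry used for EEF1A2 and EEF1D.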

Additional observations from a re-analysis of the deposited data

How the results depend on the processing

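Of 520 alternative tests of the members, 481 kept direction and side of the threshold, 19 lost and 2 gained the call, and 18 changed sign, all 18 for changes that did not pass. The cause was not tested for any of these. Keeping all libraries, the ribosome density changes of EEF1B2, EEF1D, EEF1G and EEF2 passed under every scaling, filter, tool and block, and EEF1A1 missed with limma (-1.15, adjusted p = 0.0538). Genes with higher density numbered 10 with TMM, 27 with library totals, 38 with DESeq2 and 18 with the dish as a replicate block, against 5. The block by number gave 7 higher and 106 lower, the dish block 143 lower, and neither block changed the call of a member. With library totals, density changes were 0.0043 for EEF1E1 and 0.14 for EEF2K (TMM 0.032), footprint changes 0.38 for EEF1A2 and -0.38 for EEF1E1, and mean differences in the log2 ratio of dishes -0.97 for EEF1A1, -0.20 for EEF1A2, -1.13 for EEF2, 0.12 for EEF2K (TMM 0.013) and 0.011 for EIF5A2, with a median density change of -1.10 over the 5'TOP members. Leaving out a library or dish gave 0 to 12 genes higher and 17 to 139 lower in density and 1053 (without trametinib input replicate 2) to 1744 higher in input. Density then ran from -1.30 to -1.03 for EEF1A1 (14 of 18 passed), -1.18 to -0.91 for EEF1B2 (16 of 18), -1.42 to -1.17 for EEF1D (15 of 18), -2.19 to -1.87 for EEF1G and -1.36 to -1.22 for EEF2 (18 of 18 each). The losses came without a whole trametinib dish (adjusted p to 0.170) or, for EEF1A1, without trametinib footprint replicate 1. It ran from -0.37 to 0.037 for EEF1E1, -0.25 to 0.15 for EEF2K and -0.55 to 0.14 for EIF5A2. Input ran from 0.43 to 0.67 for EEF1A1, 0.48 to 0.66 for EEF1A2, -0.062 to 0.057 for EEF1B2, 0.40 to 0.58 for EEF1D and -0.59 to 0.10 for EIF5A2. Footprints ran from -0.71 to -0.50 for EEF1A1, -0.69 to -0.43 for EEF1E1 and -0.60 to -0.33 for EIF5A2. The log2 ratio difference ran from -0.41 to 0.073 for EEF1E1, -0.14 to 0.0079 for EEF2K, -0.48 to 0.12 for EIF5A2 and -0.080 to 0.77 for EIF5A2 minus EIF5A, and the input share of EEF1A2 from -0.080 to 0.17 percentage points. Among the other genes marked 5'TOP, lower density numbered 8 to 69, higher input 0 to 20 (14 with the block by number) and lower input 1 to 5 (7 with that block), and 10 to 17 pathway genes had lower footprints (11 with library totals). Input depth limits EEF1E1 and EIF5A2, with at most 40 and 26 input reads a library.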
